A study of Homo sapiens with 12 samples.

Results

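The 46 genes described here encode proteins that start, copy and package chromosomal DNA, and they were taken by gene name from the per-library count tables of 3 human carcinoma lines. All 46 were listed in each of the 12 libraries, out of 25647 genes common to them, and all 46 were among the 16394 genes tested after a filter on low counts. They were divided by role into 8 subgroups: origin licensing (5 genes), the helicase and its helpers (12), DNA polymerases (9), the sliding clamp and its loader (6), single-strand binding and Okazaki fragment joining (5), nucleotide supply (5), chromatin assembly (2) and E2F activators (2). They lie on 21 chromosomes.

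Replication is prepared in G1, when the origin recognition complex, CDC6 and CDT1 load the MCM2 to MCM7 ring onto DNA, and it begins in S phase, when CDC45 and the GINS complex turn that ring into an active helicase. Polymerase alpha-primase then lays primers, polymerases epsilon and delta extend them around the PCNA clamp, and FEN1 and LIG1 join the lagging-strand fragments. Many of these genes are transcribed as cells enter S phase under E2F transcription factors, so their summed RNA is widely used as a sign of proliferation.

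Poly(A) RNA was sequenced from MHCC97H, known as a hepatocellular carcinoma line, A549, a lung adenocarcinoma line, and HCT116, a colorectal carcinoma line. Each line was left untreated or received 1 of 3 compounds. TSA (trichostatin A), which blocks histone deacetylases, was used at 1 µM, the EZH2 inhibitor GSK126 at 50 µM, and S2101, which blocks the demethylase LSD1, at 100 µM. HCT116 was kept in RPMI 1640 and the other lines in DMEM, so line and medium cannot be told apart. The sources used here do not give treatment times or a vehicle. There was 1 library per line and condition, so the 3 lines are the replicates of a condition (n = 3). The test removes each line's own level. Its p-values therefore measure how unevenly the lines responded, pooled over the 12 libraries, and not the spread between repeat cultures.

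The libraries held 14468304 to 19061367 gene counts, and the lowest count of any replication gene in any library was 30 reads. Markers of tissue origin were largely absent from the untreated lines. A549 had 0 of 6 lung markers at 1 RPKM (reads per transcript length and library size) or more. HCT116 had 1 of 7 colon markers, CDX2 at 5.32 RPKM. The line labelled MHCC97H had 2 of 7 liver markers, HNF4A at 10.8 RPKM and AFP at 1.18 RPKM, with ALB at 0.22 RPKM, but 5 of 7 colon markers, among them LGALS4 at 115 RPKM and CDH17 at 32.2 RPKM. The other lines also held markers of another tissue. HNF4A stood at 5.93 RPKM in A549 and 1.9 in HCT116, CDH17 at 2.41 in A549, and the lung marker NAPSA at 1.11 in HCT116. The A549 library labelled S2101 stood apart: 32 genes that were under 0.1 CPM in untreated A549 and at 10 CPM or more under TSA reached a median 7.89% of their TSA level in it, against 1.92% in the GSK126 library of the same line. Results that use that library are therefore given with and without it where it decides a call.

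In untreated cells the replication genes were a small but unequal part of the transcriptome. Together they took 0.417% of gene counts in MHCC97H, 0.510% in A549 and 0.727% in HCT116, with a widest Wilson 95% interval of 0.723 to 0.731%, which covers counting error only. Per length, PCNA, the sliding clamp, was the most abundant at 207 ± 48.2 RPKM (SD, n = 3), followed by MCM7 at 180 ± 46.1 and the thymidine kinase TK1 at 120 ± 69.6. The SDs of these neighbours overlap. The lowest were E2F2 at 7.04 ± 5.36 RPKM and POLE2, the second subunit of polymerase epsilon, at 9.10 ± 3.75. Between lines, levels were compared in normalised counts per library size (CPM, scaled with TMM factors). On that scale HCT116 had the highest untreated level of the 3 lines for 30 of the 46 genes (37.1% of all genes) and MHCC97H the lowest for 31 (38.2% of all genes), while in RPKM these counts were 35 and 36. The lines differed least in RRM1, the large subunit of ribonucleotide reductase (202, 210 and 203 CPM in MHCC97H, A549 and HCT116), and most in E2F2 (16, 30 and 64.5 CPM) and in CDT1, the licensing factor (38.3, 50.1 and 145 CPM). Values for the 3 lines are given in this order throughout.

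Every treated library held a smaller share of replication transcripts than the untreated library of its line. Under TSA the share was 0.229, 0.409 and 0.402%, under GSK126 it was 0.306, 0.161 and 0.295%, and under S2101 it was 0.274, 0.397 and 0.475%. Relative to the untreated library, TSA left 54.9, 80.0 and 55.3% of the share, GSK126 73.3, 31.5 and 40.5%, and S2101 65.7, 77.8 and 65.4%. The lowest share belonged to TSA in MHCC97H and to GSK126 in A549 and HCT116. In RNA from bulk cultures, fewer cells in S phase and less of these transcripts per cell cannot be told apart. The 3 comparisons with untreated cells share the same 3 control libraries, so they are not independent of each other.

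**Figure D1:**
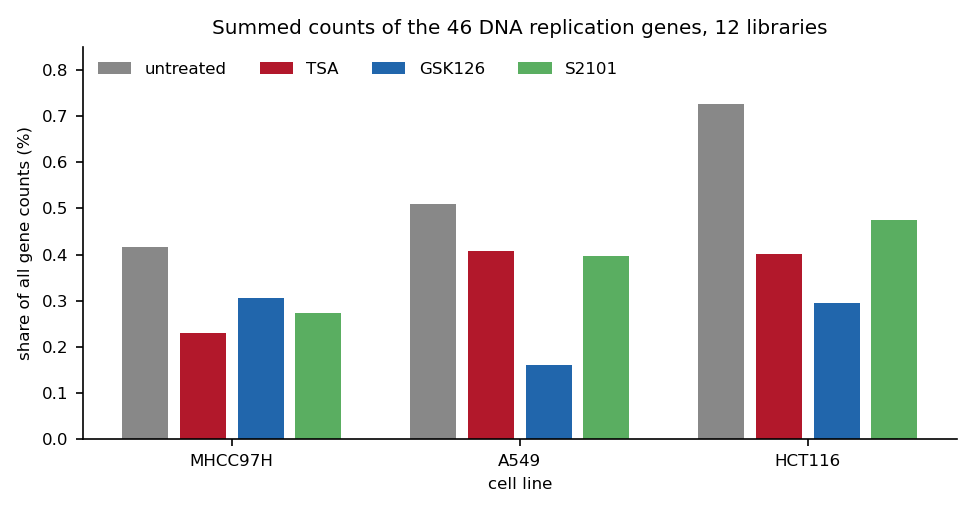
Share of all gene counts (%, vertical axis from 0) taken by the 46 replication genes in each of the 12 libraries, grouped by line and coloured by condition; each bar is 1 library, so there are no error bars. Every treated bar is below the untreated bar of its line, the lowest being GSK126 in A549 at 0.161%.

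TSA lowered most of the replication genes and raised none past the test. By edgeR's quasi-likelihood test, adjusted over all genes after Benjamini and Hochberg, 29 of 46 fell at an adjusted p under 0.05, where 17.1% of all tested genes fell, and 0 rose, where 17.1% of all genes rose (34.1% in either direction). At an unadjusted p under 0.05 the counts were 32 lower (22.7% of all genes) and 1 higher (23.5%). DESeq2 gave 30 lower (17.2% of all genes) and 1 higher, TK1 (19.6%). The median log2 change of the 46 was -1.18, against 0.07 for all genes tested. Of the 46, 36 were lower in each of the 3 lines, as were 26.6% of all genes, and for 25 every TSA library lay below every untreated one (11.2% of all genes). By median, the helicase was lowest (10 of 12 fell, median -1.51), followed by the E2F activators (2 of 2, -1.40), origin licensing (3 of 5, -1.31), nucleotide supply (3 of 5, -1.22), chromatin assembly (1 of 2, -1.07), the polymerases (6 of 9, -1.0), strand binding and joining (2 of 5, -0.71) and the clamp and its loader (2 of 6, -0.48). These differences between subgroups were not tested, since genes are not replicates. The count rests on all 3 lines: it was 18 without MHCC97H (3.35% of all genes), 19 without HCT116 (19.6%) and 0 without A549. In the fit without A549 only 12 of 16202 genes passed in either direction, and the lowest adjusted p of a member was 0.0606. The count was also 0 in a fit of only the 6 libraries compared. There 0 of 15333 genes passed, and the lowest adjusted p of a member was 0.0714. Single libraries of the other compounds also decided calls at the edge. Without the A549 S2101 library RPA2 and CHAF1A did not pass, and without the A549 GSK126 library GINS3 did not pass, while MCM10, LIG1, TK1 and CHAF1B did.

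**Figure D2:**
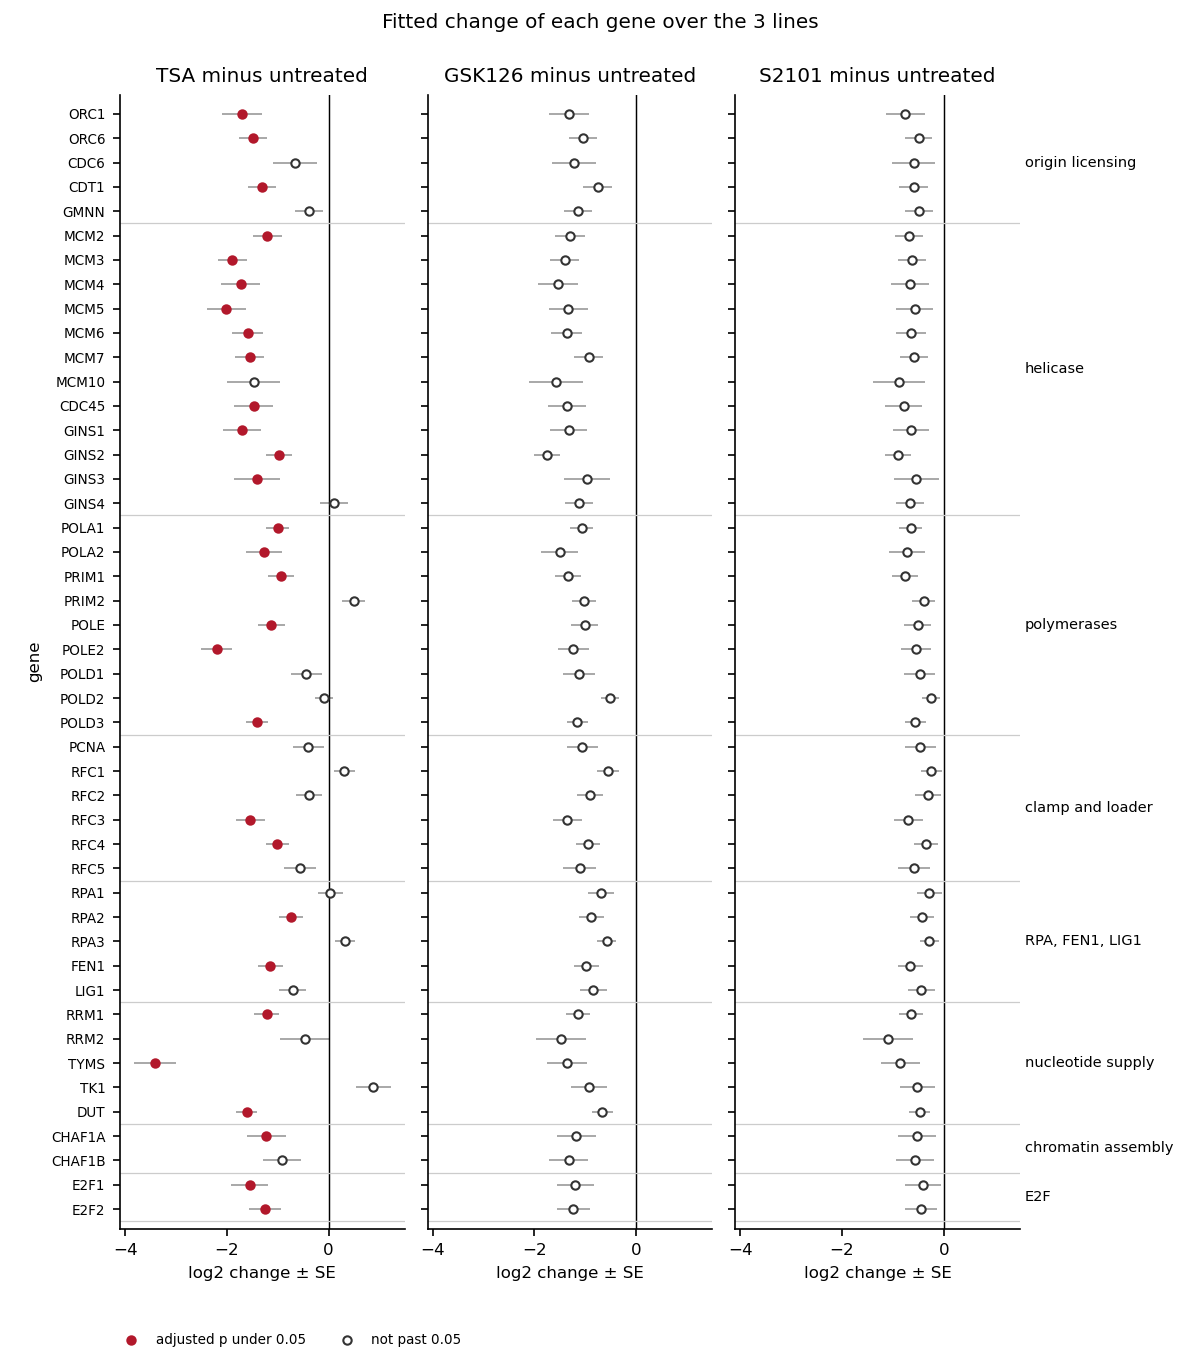
Fitted log2 change against untreated (horizontal axes, bars show the SE of the fit over 12 libraries) of each of the 46 genes under TSA, GSK126 and S2101, ordered by subgroup; filled points passed an adjusted p of 0.05. Under TSA 29 points are filled and 6 open points lie to the right of 0, while all 46 points lie to the left of 0 under GSK126 and S2101 and none is filled.

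Origin licensing was led by ORC1, the largest subunit of the origin recognition complex. Its level was 41.0, 47.6 and 56.0 CPM untreated and 6.67, 17.9 and 22.5 CPM under TSA. Every TSA library was below every untreated one, and ORC1 fell by 1.70 ± 0.39 on the log2 scale (SE, adjusted p = 0.0117). ORC1 overlaps PRPF38A on the other strand, a gene that fell by 0.62. ORC6, a smaller subunit of the same complex, went from 66.6, 48.5 and 45.3 CPM to 20.4, 14.5 and 22.2 CPM, again without overlap, and fell by 1.48 ± 0.28 (adjusted p = 0.00538). CDT1 fell by 1.31 ± 0.28, most in MHCC97H (log2 ratio -1.84). Geminin (GMNN), the protein that holds CDT1 inactive after S phase begins, had a log2 change of -0.39 that did not pass. The ratio of GMNN to CDT1 in RPKM was 2.57, 2.18 and 0.651 untreated and 7.52, 4.45 and 0.801 under TSA, higher under TSA in each line. CDC6, the ATPase that loads MCM rings, went from 98.3, 137 and 155 CPM to 46.2, 145 and 66.5 CPM. It was lower in MHCC97H and HCT116 but not in A549, and did not pass (adjusted p = 0.261).

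The helicase genes fell as a nearly complete set. MCM5, a subunit of the ring, had 119, 130 and 226 CPM untreated and 23.3, 29.3 and 72.3 CPM under TSA, and MCM3, its neighbour in the ring, had 185, 181 and 353 CPM untreated and 49.2, 40.4 and 115 CPM under TSA. Neither gene's groups overlapped, and the falls were 2.01 ± 0.38 (adjusted p = 0.00579) and 1.89 ± 0.28 (adjusted p = 0.00258) on the log2 scale. The other ring subunits fell by 1.73 (MCM4), 1.59 (MCM6), 1.55 (MCM7) and 1.21 (MCM2). MCM7 had the most RNA per length of the 6 ring subunits in each of the 12 libraries. The intact ring holds the subunits in equal number, but that concerns the proteins, which were not measured here. The highest RPKM of the 6 exceeded the lowest by 5.59, 3.10 and 3.53 times untreated and by 6.62, 4.15 and 3.53 times under TSA. CDC45, which joins the ring at the fork, fell by 1.48 ± 0.38. MCM10, a factor needed to activate the helicase, had the same fitted change with a wider error (-1.48 ± 0.52, adjusted p = 0.0545), and passed without the A549 GSK126 library (0.0137) and with DESeq2 (0.0189). In MHCC97H its log2 ratio was -2.5, against -0.92 in A549.

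The 4 GINS subunits, which form 1 complex, did not move together under TSA. GINS1 fell by 1.70, GINS3 by 1.41 and GINS2 by 0.97. The call of GINS3 (adjusted p = 0.0409) was lost without the A549 GSK126 library (0.0564) and with a filter at 10 CPM (0.0577). GINS4 had 41.0, 86.5 and 52.4 CPM untreated and 64.8, 89.2 and 39.9 CPM under TSA, values chosen for printing after they were seen. It was higher in MHCC97H, level in A549 and lower in HCT116, and its log2 change of 0.10 ± 0.28 did not pass. In MHCC97H the highest GINS subunit exceeded the lowest by 4.75 times in RPKM untreated and by 10.3 times under TSA, in A549 by 4.38 and 8.99 times, and in HCT116 by 5.25 and 3.80 times.

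Most helicase genes with a listed promoter also held a short promoter motif, an E2F site, that the choice of genes did not use. RefSeq promoters of build GRCh38.p14, from 250 bases before to 50 after a listed start, were searched on both strands for the E2F sites TTTCCCGC, TTTGGCGC, TTTCGCGC and TTTGCCGC. Of the 46 genes, 40 had a promoter in the table; MCM4, MCM5, GINS4, POLD3, RPA2 and RPA3 had none. An E2F site was found for 21 of the 40 (52.5%), against 6.18% of 11548 tested genes with a promoter and 3.31% of all 35116 promoters. It was present in 7 of 9 helicase genes, 4 of 8 polymerase genes, 3 of 5 licensing genes, 2 of 5 nucleotide genes, 2 of 6 clamp genes, 1 of 3 strand genes, both E2F genes and neither chromatin assembly gene. Among the 25 genes with a promoter that fell under TSA 17 held a site (68.0%), and among the 15 that did not pass 4 did (26.7%). This difference was not tested, and the TSA calls that make the split changed between fits. A CCAAT box (CCAAT) occurred for 60% of the 40 and 42.7% of tested genes, and the CHR element (TTTGAA) for 5 and 14.1%. No searched motif contains another, and a match is a description of the sequence, not proof of a bound site. The 7 helicase sites nearest a start are shown because they let the matches be compared base by base. Capitals mark the match, each line is written in the direction of the motif with the strand shown, and the match begins between 86 bases before and 6 bases after the start.
MCM2, chr3:127598403-127598430, plus strand: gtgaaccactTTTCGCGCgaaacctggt
MCM3, chr6:52284729-52284756, minus strand: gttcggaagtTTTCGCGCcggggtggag
MCM6, chr2:135876512-135876539, plus strand: gagctggagaTTTCGCGCcaaacctgac
MCM7, chr7:100101389-100101416, minus strand: gggggcgacgTTTCGCGCcaatttcggt
GINS1, chr20:25407668-25407695, minus strand: cgctccgcgcTTTGGCGCcgaacaaagc
GINS2, chr16:85688968-85688995, plus strand: cggccgccgtTTTCCCGCcacggcgaga
GINS3, chr16:58392456-58392483, minus strand: ttgaaactcgTTTCCCGCgcccggggac
The 4 MCM genes carried the same 8 letters, TTTCGCGC, and GINS2 and GINS3 shared TTTCCCGC.

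MCM3 held a further match 174 bases before its start. Its 250 bases before the start (chr6:52284743-52284992, minus strand, GRCh38.p14) are shown with that match in capitals, as the promoter of the ring subunit with the largest fall among those in the table.
MCM3: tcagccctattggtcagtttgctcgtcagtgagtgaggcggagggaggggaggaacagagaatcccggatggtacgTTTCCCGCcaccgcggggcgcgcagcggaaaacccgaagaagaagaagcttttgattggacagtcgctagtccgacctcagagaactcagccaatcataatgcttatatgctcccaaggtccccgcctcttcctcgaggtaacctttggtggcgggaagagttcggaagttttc
The same stretch holds 3 CCAAT boxes, 242, 120 and 84 bases before the start.

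Of the 9 polymerase genes 6 fell, with the largest fall in POLE2, the non-catalytic second subunit of the leading-strand enzyme. POLE2 had 11.8, 17.1 and 23.2 CPM untreated and 2.0, 4.11 and 5.51 CPM under TSA. All TSA libraries were below all untreated ones, the fall was 2.20 ± 0.31 on the log2 scale (adjusted p = 0.00226), and POLE, the catalytic subunit, fell by 1.13 ± 0.26. POLD3, an accessory subunit of polymerase delta, went from 48.0, 54.6 and 33.8 CPM to 15.6, 21.2 and 14.4 CPM. Its groups did not overlap either, with a fall of 1.40 ± 0.22 (adjusted p = 0.0027). The catalytic subunit POLD1 (log2 change -0.44) and the accessory subunit POLD2 (-0.08) did not pass. POLD2 was the most even of the 3, with 114, 132 and 167 CPM untreated and 133, 122 and 132 CPM under TSA. The promoter of POLE2 (chr14:49688215-49688464, minus strand, GRCh38.p14) is shown because this gene fell most among the polymerases; its single E2F match, GCGCCAAA, the reverse complement of TTTGGCGC, begins 5 bases before the start and runs across it, so only its first letters are at the end of the stretch and none is in capitals.
POLE2: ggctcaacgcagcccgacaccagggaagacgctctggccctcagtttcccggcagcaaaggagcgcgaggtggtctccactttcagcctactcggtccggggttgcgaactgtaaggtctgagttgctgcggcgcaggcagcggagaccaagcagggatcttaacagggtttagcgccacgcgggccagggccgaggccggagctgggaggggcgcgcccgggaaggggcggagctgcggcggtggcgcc

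Within polymerase alpha-primase, the enzyme that lays down primers, 3 subunits fell and 1 did not. POLA2 fell by 1.27, POLA1 by 1.0 and PRIM1, the catalytic primase subunit, by 0.93. PRIM2, the large primase subunit, had 29.3, 26.7 and 52.2 CPM untreated and 47.4, 42.8 and 55.9 CPM under TSA, higher in each line and most in MHCC97H and A549. The groups overlapped, and the log2 change of 0.49 ± 0.23 did not pass (adjusted p = 0.123). PRIM2 was the most abundant of the 4 subunits per length in the TSA library of each line, at 20.9, 19.9 and 26.6 RPKM. Untreated, that place was held by POLA2 in MHCC97H and by PRIM1 in A549 and HCT116. PRIM2 shares 768 bases with RAB23 on the other strand, whose log2 change of -0.32 did not pass.

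The clamp and its loader had the smallest median change of the 8 subgroups. PCNA had 235, 363 and 283 CPM untreated and 158, 371 and 170 CPM under TSA: it was lower in MHCC97H and HCT116 but not in A549, and did not pass (log2 change -0.40 ± 0.30). The loader holds 5 subunits, RFC1 to RFC5. RFC3 went from 33.4, 79.7 and 55.7 CPM to 10, 24.2 and 24.3 CPM and fell by 1.54 ± 0.29 (adjusted p = 0.00531), with no overlap between groups. RFC4 went from 60.4, 43.2 and 81.3 CPM to 33.1, 24.4 and 31.9 CPM, also without overlap, and fell by 1.01 ± 0.23 (adjusted p = 0.0117). RFC2 (-0.39) and RFC5 (-0.56) did not pass. RFC5 shares 8762 bases with WSB2 on the other strand, whose log2 change was -1.50. RFC1, the large subunit, had 77.6, 91.0 and 165 CPM untreated and 115, 145 and 126 CPM under TSA. It was higher in MHCC97H and A549 and lower in HCT116 (log2 change 0.31 ± 0.21, adjusted p = 0.274), and without HCT116 it stood at 0.66 with an adjusted p of 0.0229. The ratio of the highest to the lowest of RFC2 to RFC5 in RPKM went from 2.91, 1.49 and 2.35 untreated to 6.84, 3.48 and 2.64 under TSA, with RFC3 the lowest subunit in each TSA library.

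The single-strand binding protein RPA has 3 subunits in equal number, and the RNA of 1 of the 3 fell. RPA2 had 41.7, 50.6 and 86.7 CPM untreated and 23.9, 34.0 and 48.5 CPM under TSA. The groups overlapped, since lines differ in level, but each line was lower, and the fall was 0.73 ± 0.24 (adjusted p = 0.0403). Without the A549 S2101 library, which stood apart, RPA2 did not pass (-0.72, adjusted p = 0.0598), nor did it with the filter at 10 CPM (0.0899). RPA1 (log2 change 0.04) and RPA3 (0.32) did not pass. RPA3 shares 77856 bases with the protein-coding gene UMAD1, and the sources used here do not say how shared reads were assigned. Of the genes that finish the lagging strand, FEN1, the flap nuclease, went from 136, 160 and 163 CPM to 48.4, 81.9 and 79.7 CPM. Its groups did not overlap, and it fell by 1.14 ± 0.24 (adjusted p = 0.00885). LIG1, the ligase, missed the threshold (-0.71 ± 0.26, adjusted p = 0.0653, and 0.0497 without the A549 GSK126 library), although its TSA libraries also lay below all untreated ones.

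**Figure D3:**
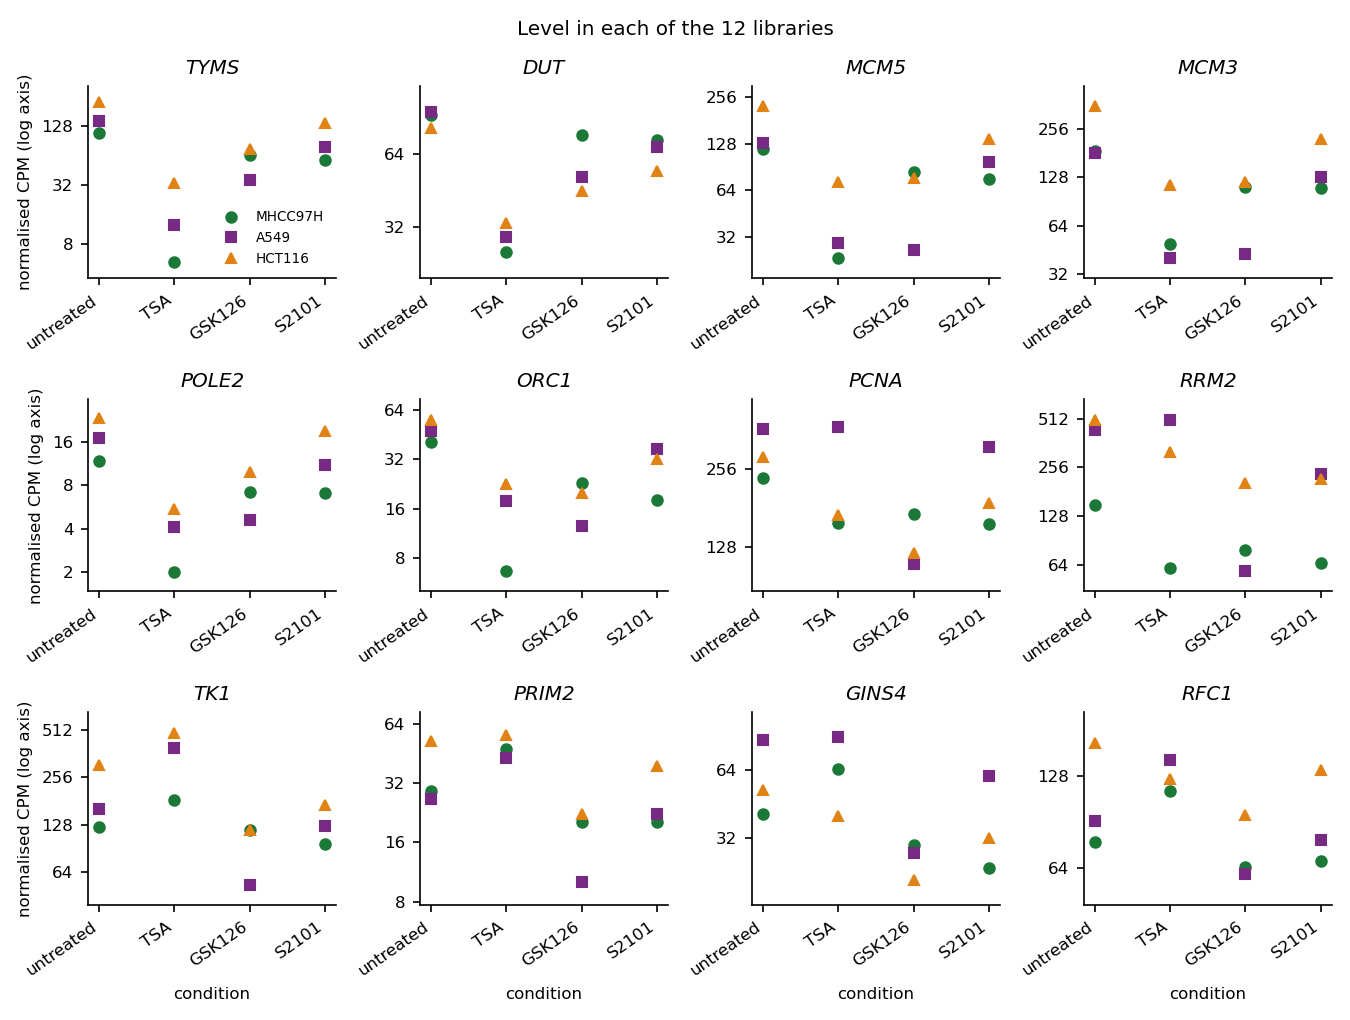
Normalised CPM (log axis) of 12 replication genes in each of the 12 libraries, with 1 point per library and a symbol for each line. TYMS drops furthest under TSA, to 5.20, 12.5 and 33.4 CPM, while TK1 and PRIM2 lie above untreated under TSA in each line.

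The genes of nucleotide supply ranged from the largest fall of all 46 genes to the highest fitted value. TYMS, thymidylate synthase, which makes dTMP from dUMP, had 108, 143 and 224 CPM untreated and 5.20, 12.5 and 33.4 CPM under TSA. No TSA library reached any untreated one, and TYMS was 10.7-fold lower over the lines, with a log2 change of -3.41 ± 0.42 (adjusted p = 0.00179). TK1, which supplies dTMP by the salvage route from thymidine, had 124, 161 and 306 CPM untreated and 183, 393 and 493 CPM under TSA. It was higher in each line with overlapping groups, and its log2 change of 0.88 ± 0.34 missed the threshold (adjusted p = 0.0744). It passed with the 10 CPM filter, with DESeq2 and without the A549 GSK126 library, at adjusted p of 0.0447, 0.0435 and 0.0455. The ratio of TYMS to TK1 in RPKM was 0.872, 0.898 and 0.736 untreated and 0.0286, 0.0322 and 0.0684 under TSA. Under GSK126 it was 0.551, 0.675 and 0.638, and under S2101 0.589, 0.620 and 0.791.

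TYMS lies at chr18:657653-673578 and shares 10593 bases with ENOSF1 on the other strand, and the sources used here do not say how reads of overlapping genes were assigned. ENOSF1 fell by 1.5 (adjusted p = 0.0039), from 66.5, 62.1 and 78.3 CPM to 24.5, 16.3 and 33.0 CPM. The 250 bases before the start of TYMS (chr18:657403-657652, plus strand, GRCh38.p14) are shown because TYMS fell most of all 46 genes. The capitals mark GCGGGAAA, the reverse complement of TTTCCCGC, which begins 39 bases before the start.
TYMS: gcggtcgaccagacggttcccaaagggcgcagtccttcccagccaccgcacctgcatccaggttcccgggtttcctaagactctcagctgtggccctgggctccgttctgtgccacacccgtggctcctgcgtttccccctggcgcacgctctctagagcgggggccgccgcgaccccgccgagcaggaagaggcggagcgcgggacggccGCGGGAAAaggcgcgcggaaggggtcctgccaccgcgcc
TK1, with 2 listed promoters, held no E2F match in either.

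DUT, which feeds the same route by making dUMP, went from 93.2, 95.3 and 82.0 CPM to 25.3, 29.1 and 33.3 CPM. Its groups lay far apart and it fell by 1.61 ± 0.21 (adjusted p = 0.00193). DUT has 8 named processed pseudogenes and TYMS 2, so some reads of either may be shared. The same limit holds for each of the 9 members with such pseudogenes, among them PCNA, RRM2 and RPA2 with 3 each. Ribonucleotide reductase turns ribonucleotides into deoxyribonucleotides and needs both of its subunits. RRM1 fell by 1.22 ± 0.24 (adjusted p = 0.00674). RRM2, the small subunit that is limiting in the cell cycle, had 151, 437 and 503 CPM untreated and 61.3, 504 and 317 CPM under TSA. It was lower in MHCC97H and HCT116 and higher in A549, and did not pass (-0.46 ± 0.49). The RPKM ratio of RRM2 to RRM1 was 0.699, 1.95 and 2.32 untreated and 0.886, 4.91 and 2.84 under TSA.

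CHAF1A, the large subunit of the factor that places new histones on copied DNA, went from 107, 81.2 and 153 CPM to 30.6, 48.3 and 61 CPM. The groups did not overlap and it fell by 1.23 ± 0.39 (adjusted p = 0.037), most in MHCC97H. The call was lost without the A549 S2101 library (-1.20, adjusted p = 0.0563) and with the 10 CPM filter (0.0611). Its partner CHAF1B did not pass (-0.91 ± 0.38, adjusted p = 0.0885, and 0.036 without the A549 GSK126 library), and its log2 ratio was -1.76 in HCT116. E2F1, an activator of S-phase genes, went from 60.5, 68.7 and 57.9 CPM to 16.5, 21.8 and 25.0 CPM, well apart, and fell by 1.55 ± 0.36 (adjusted p = 0.0126). E2F2, a related activator, fell by 1.25 ± 0.32.

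**Figure D4:**
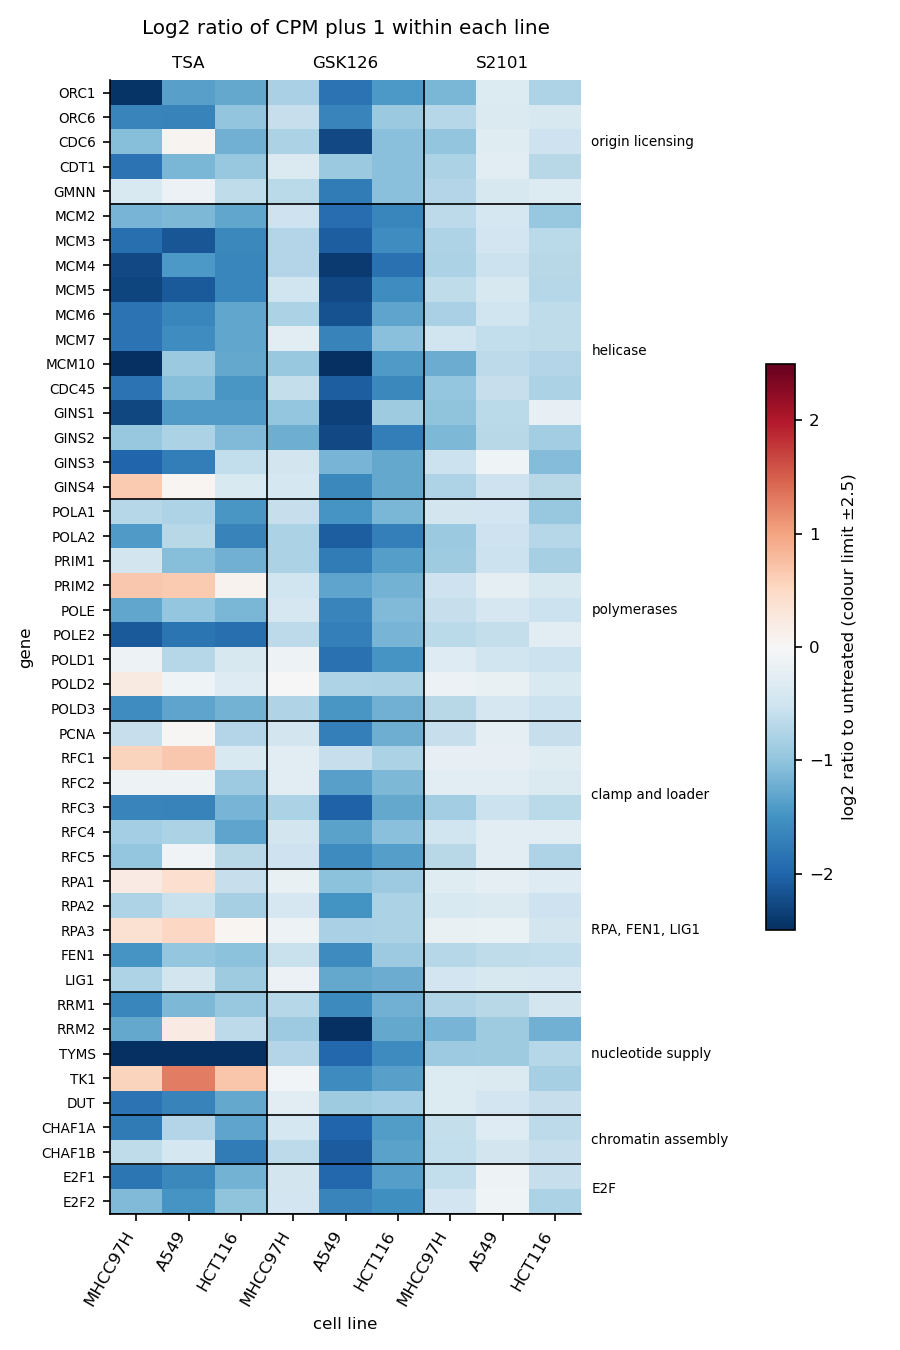
Log2 ratio of normalised CPM plus 1 to the untreated library of the same line (colour, limits at ±2.5) for each of the 46 genes (vertical axis) in the 9 treated libraries (horizontal axis). Under TSA red cells, which mark levels above untreated, occur in each line for PRIM2, RPA3 and TK1, whereas all cells of S2101 and nearly all of GSK126 are blue, deepest for GSK126 in A549.

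GSK126 gave lower levels of all 46 replication genes, without a call at the adjusted threshold. The median fitted log2 change was -1.14, against 0.01 for all genes, and the single values ran from -1.75 (GINS2) to -0.52 (POLD2). Of the 46 genes, 45 were lower in each of the 3 lines (23.4% of all genes were), and for 37 every GSK126 library lay below every untreated one (5.54% of all genes). In edgeR's quasi-likelihood test 0 members and 0% of all genes passed the adjusted threshold. At an unadjusted p under 0.05, 45 members were lower, all but GINS3, against 9.17% of all genes, and adjusted p-values of members ran from 0.0802 to 0.319. Calls differed between fits. Without the TSA libraries 43 members fell (6.85% of all genes fell), with DESeq2 36 fell (5.39%), and with only the 6 libraries compared 12 fell (0.482%). With both the TSA libraries and the A549 S2101 library left out 39 fell (3.55%). Without the TSA libraries TK1, RPA3 and POLD2 did not pass.

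Changes under GSK126 were smallest in MHCC97H and largest in A549, a difference that 1 library per line cannot test. The median log2 ratio of the 46 genes was -0.51 in MHCC97H, -1.68 in A549 and -1.26 in HCT116. GINS2 had 33.4, 65.5 and 71.9 CPM untreated and 13.7, 13.0 and 21.1 CPM under GSK126, a log2 change of -1.75 ± 0.26 (adjusted p = 0.0802) and no overlap between groups. TYMS had 64.6, 35.9 and 74.9 CPM, MCM5 83.9, 26.3 and 77.0 CPM, and RRM2 79.6, 59.1 and 206 CPM under GSK126. In each of these genes the A549 library was the lowest of the 3, although untreated A549 was not. At least a 2-fold lower level was seen for 1 of 46 genes in MHCC97H, 41 in A549 and 37 in HCT116, where 0.22, 5.20 and 1.80% of all genes were that much lower. Without the GSK126 library of A549 the lowest adjusted p of a member was 0.325.

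Subgroups lay closer together under GSK126 than the TSA medians did, although this was not tested. The helicase stood at -1.35, chromatin assembly at -1.25, the E2F activators at -1.22, nucleotide supply and origin licensing at -1.14 each, the polymerases at -1.12, the clamp and loader at -1.0, and RPA, FEN1 and LIG1 at -0.85. Genes that had not fallen under TSA were among those with lower values. PCNA had 171, 110 and 121 CPM under GSK126 (log2 change -1.06 ± 0.30), GINS4 29.9, 27.5 and 20.9 CPM (-1.13 ± 0.28), PRIM2 20.4, 10.1 and 22.4 CPM (-1.02 ± 0.24) and TK1 118, 53.5 and 118 CPM (-0.92 ± 0.35). None of these passed in the fit of 12 libraries.

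**Figure D5:**
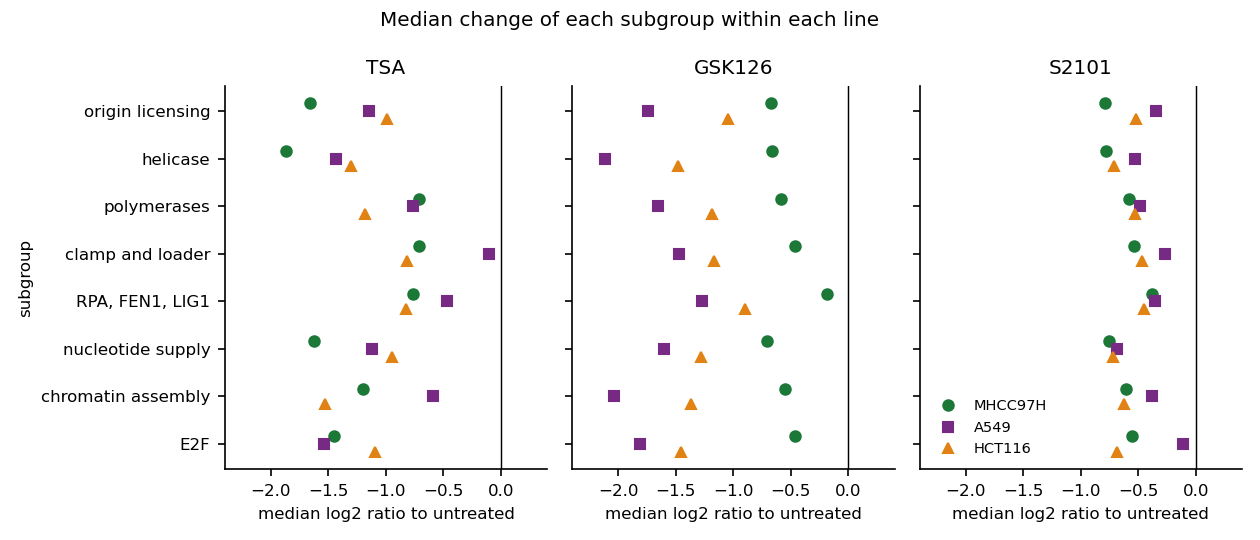
Median over each subgroup of the log2 ratio of normalised CPM plus 1 to the untreated library of the same line (horizontal axes), with 1 symbol per line, for TSA, GSK126 and S2101. Under GSK126 MHCC97H is nearest 0 and A549 furthest in every subgroup, with the helicase at -0.67, -2.11 and -1.48.

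S2101 also gave lower fitted levels of all 46 genes, at a smaller size. The median log2 change was -0.57, against 0.00 for all genes, and values ran from -1.09 (RRM2) to -0.24 (RFC1). All 46 were lower in each of the 3 lines, as were 21.4% of all genes. In edgeR's quasi-likelihood test 0 members and 0% of all genes passed, and DESeq2 (0.033% of all genes lower) and the fit without the TSA libraries also called 0 members. At an unadjusted p under 0.05, 11 members were lower (23.9%, against 2.45% of all genes): MCM2, MCM3, GINS2, GINS4, POLA1, PRIM1, POLD3, RFC3, FEN1, RRM1 and DUT. With only the 6 libraries compared RRM2 alone passed (log2 change -1.07, adjusted p = 0.0337), where 0.0137% of all genes fell. RRM2 had 66.5, 234 and 217 CPM under S2101 against 151, 437 and 503 CPM untreated, lower in each line, while the groups overlapped. Every S2101 library lay below every untreated one for 11 of the 46 genes (2.6% of all genes). Median ratios by line were -0.67, -0.42 and -0.62. The A549 library, which stood apart, was nearest to its untreated library, and without it the fitted medians went from -0.65 to -0.85 in the helicase, from -0.55 to -0.61 in the polymerases and from -0.43 to -0.76 for the E2F activators, still with 0 calls.

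Direct comparisons of the compounds called some of the replication genes, with doses that differ by design. For TSA against GSK126, 3 of 46 were lower and 6 higher, shares no larger than those of all genes. TYMS (log2 difference -2.06 ± 0.41), POLE2 (-0.97 ± 0.31) and DUT (-0.94 ± 0.21) were lower under TSA than under GSK126, where 14.2% of all genes were lower. TK1 (1.80 ± 0.36), PRIM2 (1.52 ± 0.24), GINS4 (1.23 ± 0.28), RPA3 (0.91 ± 0.19), RFC1 (0.86 ± 0.21) and GINS2 (0.78 ± 0.26) were higher under TSA, where 14.5% of all genes were. In edgeR's quasi-likelihood test the adjusted p-values of these 9 genes ran from 0.00342 (PRIM2) to 0.0476 (GINS2). The other 37 genes did not pass, and the median difference of the 46 was 0.03. By line that median was -0.64, 0.79 and 0.15, so the order of the compounds was not the same in the 3 lines. Without the GSK126 library of A549 the counts were 4 lower and 2 higher, while calls over all genes went from 4707 of 16394 to 2193 of 16889.

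Against S2101, TSA gave lower levels of 10 genes (13% of all genes were lower): ORC6, MCM3, MCM5, MCM6, MCM7, POLE2, POLD3, TYMS, DUT and E2F1. TYMS had the largest difference, at -2.56 ± 0.40 (adjusted p = 0.00462), followed by POLE2 at -1.66 ± 0.31 (adjusted p = 0.00748). TK1 (1.41 ± 0.35), PRIM2 (0.89 ± 0.23) and RPA3 (0.61 ± 0.19) were higher under TSA (13.2% of all genes were). Without the S2101 library of A549 the counts were 3 lower and 0 higher. Calls over all genes also dropped, from 4306 of 16394 to 1926 of 16875 in either direction. GSK126 and S2101 did not differ past the threshold for any of the 46 genes or for any gene tested (0% called). All 46 were fitted lower under GSK126 (50.6% of all genes were), with a median difference of -0.59. DESeq2 also called 0 members. The medians by line for that pair were 0.11, -1.26 and -0.67. Of the 46 genes, 6 (13%) were lower under GSK126 than under S2101 in each of the 3 lines. That share is no larger than the 16% of all genes.

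Ranked within a line, the lowest of the 4 conditions was TSA for 32 of 46 genes in MHCC97H, GSK126 for 39 in A549 and GSK126 for 31 in HCT116, where TSA was lowest for the other 15. Over all genes these shares were 39.8, 24 and 24.7%, and 34.4% for TSA in HCT116. The untreated library was the lowest for 0 of the 46 genes in each line, whereas it was the lowest for 27.7, 29.9 and 22.2% of all genes. It was the highest for 39, 37 and 43 of the 46, against 26.6, 27.8 and 23.6% of all genes. The genes for which TSA was highest numbered 7, 9 and 3, against 43.5, 38.7 and 36.9% of all genes.

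A list of 58 further genes of the same pathways was also tested. The list was chosen with earlier results of these data known, so it is not an independent check of the pattern. Under TSA 36 fell and 3 rose, where 17.1% of all genes fell and 17.1% rose, with a median log2 change of -1.09. Among 14 genes of licensing and firing 9 fell, including MTBP (-1.90) and TOPBP1 (-1.58), which help activate origins, and the MCM-binding protein MCMBP (-1.56), and ORC4 rose by 0.39. Among 17 fork genes 9 fell, including DSCC1 (-1.98), a subunit of an alternative clamp loader, RNASEH2B (-1.96), of the ribonuclease that removes RNA from DNA, and the nuclease DNA2 (-1.61). Of 10 nucleotide genes 8 fell, including CTPS1 (-1.81), DTYMK (-1.67) and DCTD (-1.64), and 2 rose. Those 2 were SAMHD1, which degrades deoxynucleotides, at 2.29 ± 0.25 (adjusted p = 0.00127), and RRM2B, the p53-induced small subunit of ribonucleotide reductase, at 0.48 ± 0.16 (adjusted p = 0.0457). SAMHD1 went from 23.7 ± 5.10 to 123 ± 69.9 CPM (SD, n = 3) and was higher in each of the 3 lines. Of 6 chromatin assembly genes 4 fell, including UHRF1 (-1.89), NASP (-1.36) and HELLS (-1.27), and of 11 E2F and RB family genes 6 fell, including E2F3 (-1.75), TFDP1 (-1.56) and E2F5 (-1.38). Under GSK126 52 of the 58 were fitted lower (median -0.73) and under S2101 51 (median -0.41), with 0 called in either. Over all genes 49.2 and 49.9% were fitted lower. At an unadjusted p under 0.05, 36 were lower and 1 higher under GSK126 (9.17 and 7.81% of all genes), and 12 lower and 1 higher under S2101 (2.45 and 2.56%).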

How the data were processed

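Each library's table holds, per the file headers, raw counts of reads by gene symbol and the authors' RPKM, which divides by the length of the longest transcript. The submitters' processing notes name builds GRCh38 and hg38. The sources used here do not name the aligner or counter, or say how strand and shared reads were handled.

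Counts of 25647 genes were fitted with edgeR 4.0.16 (R 4.3.3): TMM scaling (factors 0.890 to 1.110), filterByExpr by condition (16394 genes), terms for condition and cell line over 12 libraries (6 residual degrees of freedom), quasi-likelihood F test, Benjamini-Hochberg adjustment over all genes, threshold 0.05. The test was tried on simulated data that held no differences between lines, so that trial does not show how the test handles them. The cell line is the block: libraries of the same line deviated together from their condition means (r from 0.712 to 0.949 over 18 pairs, and from -0.626 to -0.251 over 36 pairs of different lines). Ratios within a line used normalised CPM plus 1. The deposited RPKM served for levels and ratios between genes and for tissue markers, and CPM for levels between libraries. Alternatives were RLE factors, no filter, a minimum of 10 CPM in 3 libraries, omission of the cell line term, of lines or of libraries, only the 6 libraries compared, other pseudocounts, and DESeq2 1.42.0.

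Members, subgroups and lists were chosen with earlier results of these data known. Library values are given for the 2 members per subgroup with the largest TSA change (1 in subgroups of 2). CDC6, GINS2, GINS4, POLD2, PRIM2, PCNA, RFC1, TK1 and RRM2 were added after their values were seen. Of each further list, up to 3 called genes per direction are named.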

Additional observations from a re-analysis of the deposited data

Results flagged for a closer look

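In 3 genes and 3 medians the lines moved in opposite directions by at least 0.3 on the log2 scale each way, a pattern picked out after the values were seen. Each line has 1 library per condition, so these differences between lines were not tested. Under TSA the log2 ratio of GINS4 was 0.65 in MHCC97H, 0.04 in A549 and -0.39 in HCT116, a spread of 1.03. RFC1 stood at 0.57, 0.67 and -0.38, a spread of 1.05. RPA1, the large subunit of the single-strand binding protein, stood at 0.20, 0.42 and -0.59, a spread of 1.01. In RFC1 and RPA1, HCT116 was the line with a lower level under TSA.

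Between TSA and GSK126 the median difference of the 46 replication genes was -0.64 in MHCC97H, 0.79 in A549 and 0.15 in HCT116, a spread of 1.44. The helicase genes had the wider spread of 2.13, with -1.28, 0.85 and 0.13. The nucleotide supply genes stood at -0.92, 0.48 and 0.25, a spread of 1.41. In MHCC97H the replication genes were thus lower under TSA, and in A549 lower under GSK126.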

How the results depend on the processing

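The 29 falls under TSA rest on the cell line pairing. Without the cell line term, that is with no replicate block, 2 members (TYMS and DUT) and 260 of all genes passed, and TSA against GSK126 and against S2101 gave 0 members lower and 0 higher in each comparison, with 14 and 0 of all genes; no other call changed. In a fit of only the 6 libraries compared, TSA gave 0 members and 0 of all genes, GSK126 12 members lower and 275 of all genes, S2101 1 and 20, TSA against GSK126 0 members lower and 0 higher with 135 of all genes, and TSA against S2101 0, 0 and 0. With DESeq2, 1 member was higher under TSA, GSK126 gave 36 lower and 1214 of all genes, S2101 23 of all genes, and GSK126 against S2101 3 of all genes. Without the TSA libraries GSK126 gave 43 members lower and 2124 of all genes.

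Requiring 10 CPM in 3 libraries gave 1 member higher under TSA and ended the calls of GINS3, RPA2 and CHAF1A, 7 of all genes under GSK126, 5 members higher under TSA than S2101, and a nucleotide median under S2101 of -0.59, and POLD2 turned from -0.08 to 0.08 under TSA. No filter gave 7 of all genes under GSK126. A pseudocount of 5 CPM put the mean of the polymerase medians within lines under S2101 at -0.48.

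Leaving out 1 line, or the A549 library of S2101 or of GSK126, gave 0 to 31 members lower and 0 to 1 higher under TSA, with 12 to 6495 of all genes. TSA against GSK126 ran over 0 to 4 lower, 0 to 6 higher and 0 to 5496 of all genes, and TSA against S2101 over 0 to 15 lower, 0 to 3 higher and 0 to 5144. Without HCT116 the 1 member higher was RFC1. When the TSA libraries were left out together with the A549 S2101 library, GSK126 gave 39 members and 1161 of all genes. Over all these omissions GSK126 thus ran over 0 to 39 members and 0 to 1161 of all genes, and S2101 over 0 to 1 of all genes. The S2101 medians ran from -0.90 to -0.60 in the helicase, -0.69 to -0.47 in the polymerases, -0.59 to -0.35 in the clamp and loader, -0.54 to -0.36 in RPA, FEN1 and LIG1, -0.75 to -0.57 in nucleotide supply, -0.79 to -0.48 in chromatin assembly and -0.77 to -0.30 for the E2F activators.

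The fits without the A549 S2101 library together with the TSA libraries, without the A549 GSK126 library, and with the filter set by the design matrix (29 falls under TSA) were chosen after seeing the data. The signs of all 46 values under GSK126 and S2101 held in every fit run, and TSA kept 39 to 42 of 46 below 0. RLE factors changed none of the counts of members called against untreated.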
